A study of Mus musculus with 12 samples.

Results

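Chemokines and their receptors were followed in the thymus of wild type male C57BL/6 mice at 2 weeks (2W), 6 weeks (6W) and 3 months (3M) of age, with 2 libraries at each age. Members were chosen by symbol from the table of mRNA transcripts, as the names in Ccl, Cxcl, Cx3cl, Xcl, Ccr, Cxcr, Cx3cr, Xcr or Ackr that go on with a number, and the transcripts of a symbol were summed. This gave 62 genes of the 22843 in the table, of which 60 had a count in some library. They were 24 CC ligands, 13 CXC ligands, 1 CX3C ligand and 1 XC ligand, together with 11 CC receptors, 6 CXC receptors, 1 CX3C receptor, 1 XC receptor and 4 atypical receptors. The study set out to follow the thymus through its growth after birth, from 2W to 6W, and its decline, from 6W to 3M. The mice were untreated, each library came from RNA of whole thymus, and the study describes the 2 libraries of an age as biological replicates.

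Chemokines are small secreted proteins that steer cells along a concentration gradient by way of receptors coupled to G proteins. In the thymus they bring in progenitors from the blood, place immature thymocytes in the cortex, draw selected thymocytes into the medulla, and position macrophages, dendritic cells and other haematopoietic cells of the stroma. Ccl25 with its receptor Ccr9 and Cxcl12 with Cxcr4 are best known for the immature stages, Ccl21a and Ccl19 with Ccr7 and Ccl17 and Ccl22 with Ccr4 for entry into the medulla, and the atypical receptors bind chemokines without the usual signal and clear them.

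Total estimated counts were between 16519753 and 22553481 per library, and the chemokine and receptor genes together took between 0.173% and 0.204% of them. Spearman correlations over all tested genes were 0.983 to 0.993 between libraries of 1 age and 0.968 to 0.988 between ages. Levels of 1 gene across libraries are given as normalised counts per 1000000 counts (CPM). Libraries of 1 age differed by more than counting noise. The 3M libraries differed from each other in markers of other tissue: summed adipocyte markers were 473 CPM in replicate 1 and 269.6 in replicate 2, whereas red blood cell markers were 512 and 2169 CPM and the parathyroid gene Pth was 8.60 and 17.9 CPM.

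A few genes carried most of the chemokine signal at every age. On the FPKM scale, which divides by transcript length and so allows genes to be compared, Ccl25, Cxcr4, Ccr9, Ccl21a and Cxcl12 held between 78.5% and 85.0% of the summed level of all 62 genes in every library. Ccl25, the ligand made by thymic epithelium, had the highest mean level, with 298 and 242 at 2W, 318 and 321 at 6W, then 273 and 284 at 3M FPKM. Cxcr4, the receptor of Cxcl12, stood at 206 and 186 at 2W, 240.1 and 231 at 6W, then 188 and 229.7 at 3M FPKM. Ccr9, the receptor of Ccl25, stood at 183 and 193 at 2W, 161 and 163 at 6W, then 141 and 141 at 3M FPKM. The order within this leading group varied, with Ccr9 above Ccl21a in both 2W libraries and below it in both 6W libraries. In 6W replicate 1 the gap was small (161.02 and 163.35 FPKM), and at 3M Ccr9 was above Ccl21a in replicate 1 and below it in replicate 2. Ccl21a, a ligand of Ccr7, stood at 94.4 and 51.3 at 2W, 163 and 188 at 6W, then 123 and 171 at 3M FPKM. Cxcl12, a ligand of thymocyte progenitors and stroma, stood at 45.2 and 52.9 at 2W, 70.7 and 64.5 at 6W, then 102 and 85.0 at 3M FPKM. The 3M levels of Cxcl12 were all above its 2W levels, and those of Ccr9 were all below. In mean level over the 6 libraries, 12 genes reached at least 10 FPKM, 23 lay from 1 to under 10 FPKM and 27 lay under 1 FPKM. The 23 genes of the middle range held 4.33% to 5.08% of the summed level at 2W, 6.93% to 7.58% at 6W and 8.53% to 9.18% at 3M, so their share was higher at each later age with no overlap. The share of the 27 genes under 1 FPKM had no such order, at 0.801% to 0.907% at 2W, 0.860% to 0.964% at 6W and 0.808% to 0.954% at 3M. Neighbours in the order such as Ccl22 and Ccr7, Ccr4 and Ccl5, or Cxcl10 and Ccl8 had ranges over the libraries that overlapped.

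**Figure D1:**
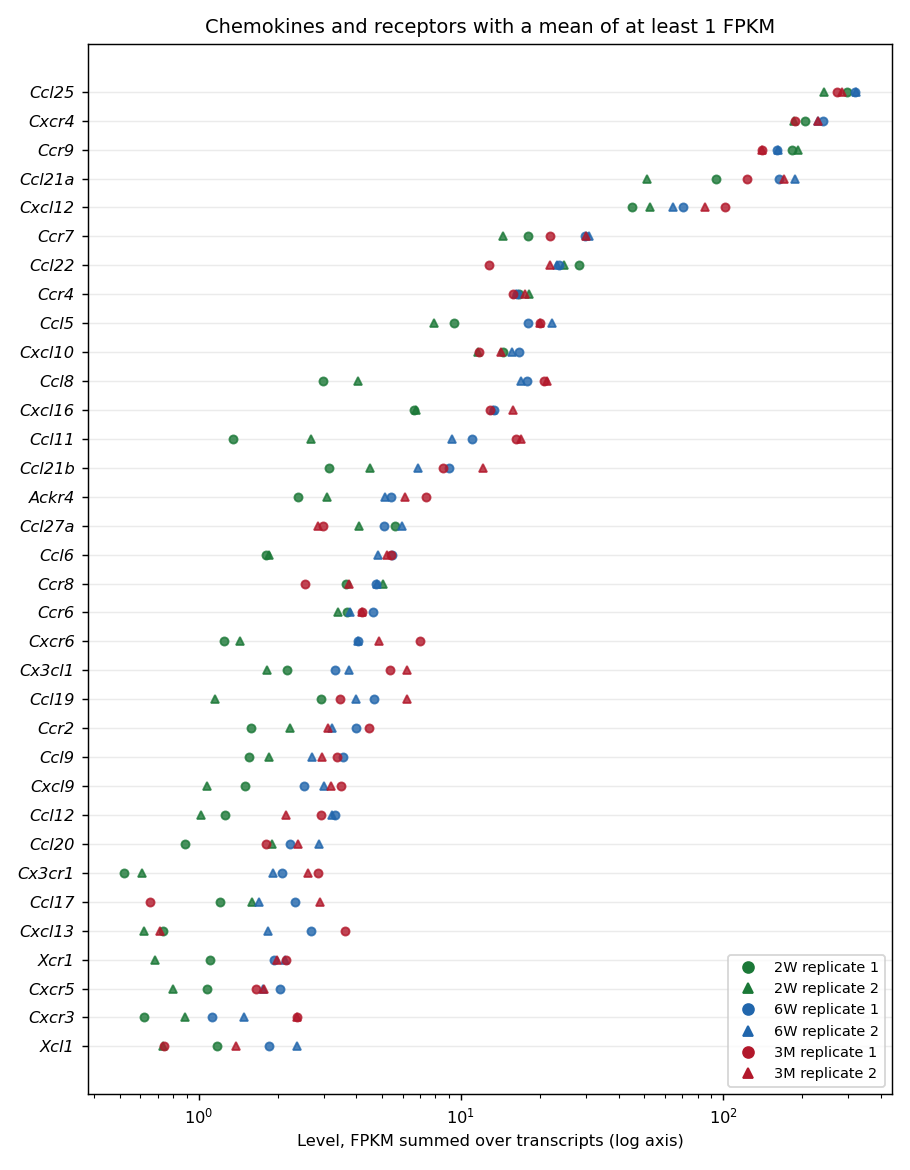
Level of chemokine and receptor genes with a mean of at least 1 FPKM, on a log axis, with 1 point per library coloured by age and shaped by replicate. Ccl25, Cxcr4, Ccr9, Ccl21a and Cxcl12 stand at the top, and the widest gaps between the 2W points and the others are those of Ccl8, Ccl11, Cxcr6 and Cx3cr1.

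From 2W to 6W, the period of growth, chemokine genes moved up more than down. The CC ligands Ccl8 and Ccl11 were 4.65-fold and 4.73-fold higher at 6W, and Cx3cr1, the fractalkine receptor of monocytes and macrophages, was 3.33-fold higher. The receptor Cxcr6 (2.84-fold) and its ligand Cxcl16 (1.91-fold), the lymphocyte ligand Ccl5 (2.20-fold) and the myeloid ligand Ccl6 (2.65-fold) were also among the genes that passed an adjusted p under 0.05. The genes that passed numbered 8, or 17.0% of the 47 that had enough counts to be tested, and no member was lower at that threshold, where 1.47% of the 14805 genes tested were higher and 0.263% were lower. The study's methods use an unadjusted p under 0.05 together with a log2 fold change beyond 1 in size, and by that threshold 13 of 47 were higher and 0 lower, beside 4.48% and 0.878% of all genes. At an unadjusted p under 0.05 alone, 22 of 47 differed, beside 18.9% of all genes, and of the 22 Ccr9 was lower. In 35 of 47 both 6W libraries lay above both 2W libraries, and in 4 both lay below, beside 28% and 29.8% of all genes. The log2 fold change was above 0 in 42 of 47, beside 49.2% of all genes, and its median was 0.81 over the 47 genes and -0.0061 over all genes tested, and ranged among the 47 from -0.58 (Ccl24) to 2.69 (Ccr3). The adjusted calls were lost in several of the other fits. Without 2W replicate 1, 2W replicate 2, 6W replicate 1 or 6W replicate 2 the count was 0, and it was also 0 with the replicate number as a block and when transcripts assembled by the authors were left out. In those 6 fits the calls over all genes fell from 257 to between 0 and 5. Over the same changes of data the count at the study's threshold stayed between 12 and 16.

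Between 2W and 3M, the widest span of age, the same direction prevailed. Of the 47 tested genes, 16 were higher at an adjusted p under 0.05 (34.0%) and 1, Ccr9, was lower (2.1%), where 7.91% of all genes were higher and 3.1% lower. Among them were the ligands Ccl5, Ccl6, Ccl8, Ccl11, Ccl21b, Cxcl9, Cxcl12, Cxcl16 and Cx3cl1, the receptors Ccr1, Cxcr3, Cxcr6, Cx3cr1 and Xcr1, and the scavenger Ackr4. At the study's threshold 18 were higher and 1, Ccl24, was lower, beside 7.67% and 1.68% of all genes, or 19 in either direction beside 9.35%. Both 3M libraries lay above both 2W libraries in 26 of 47 genes and below in 6, beside 27.7% and 24% of all genes. The log2 fold change was above 0 in 38 of 47 and below 0 in 9, beside 47.3% and 52.7% of all genes, with a median of 0.75 over the 47 genes and -0.026 over all genes. Ccl8, Ccl11 and Cx3cr1 passed the adjusted threshold in every other fit tried and without any 1 library, whereas the count of 17 fell to 4 without 2W replicate 1, to 5 without 2W replicate 2 and to 8 without either 6W library. It was 9 when only the 4 libraries of the 2 ages entered the fit, and 9 with the replicate number as a block. Over all genes the calls fell from 1630 to 239, 289, 567 and 572 with those libraries left out, 663 with the 4 libraries and 742 with the block. The calls of members lost both with the 4 libraries and with the block were Ackr4, Ccl21b, Ccr1, Ccr9, Cx3cl1, Cxcl12, Cxcr3 and Xcr1.

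Between 6W and 3M, the period of decline, the genes did not move one way. Of the 47, 21 had a log2 fold change above 0 and 26 below, beside 53.2% and 46.8% of all genes, with a median of -0.055 against 0.023 for all genes. At an adjusted p under 0.05 the edgeR test called 0 of 47, where over all genes it called 0% higher and 0.00675% lower. DESeq2 also called 0 of 47, where it called 352 of all 14805 genes (2.38%). At an unadjusted p under 0.05 there were 7 of 47, a share near the 14.3% of all genes. Among those 7, the log2 fold changes were 0.87 for Cxcr3, 0.72 for Ccl11, 0.56 for Cxcr6, 0.49 for Cxcl12, 0.46 for Cx3cr1, -0.83 for Ccl27a and -1.30 for Ccl24. Ccl24, an eotaxin made by macrophages, was the 1 gene past the study's threshold, with 1.14 and 1.41 at 2W, 0.679 and 1.01 at 6W, then 0.421 and 0.269 at 3M CPM, and 1.29% of all genes were higher and 0.817% lower at that threshold. Its libraries at 3M were the lowest, and the gene was no longer past that threshold whichever of the 6 libraries was left out. Levels were ordered 2W below 6W below 3M with no overlap in 9 genes (Ackr4, Ccl8, Ccl11, Cx3cr1, Cxcl9, Cxcl12, Cxcl16, Cxcr3 and Cxcr6), beside 8.79% of all genes, and in the opposite order in 3 (Ccl22, Ccl24 and Ccr9), beside 5.36%. Both 6W libraries were above all the others in 8 genes (Ccl12, Ccl25, Ccr3, Cxcl10, Cxcr2, Cxcr4, Cxcr5 and Xcl1), beside 7.04% of all genes, and below all the others in 0, beside 8.68%. The 3 comparisons share libraries, so they are not independent of each other.

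**Figure D2:**
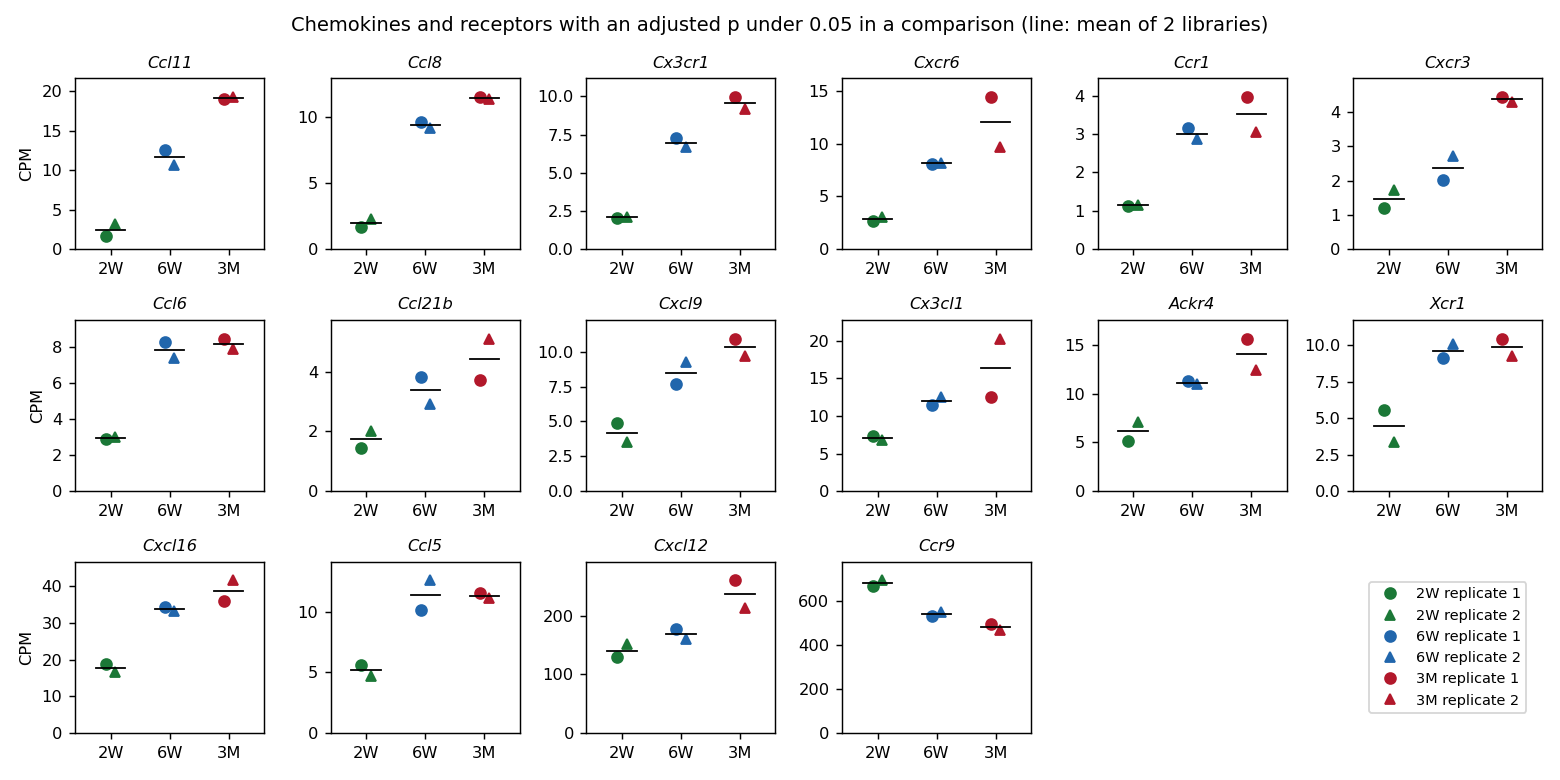
Normalised level in CPM (counts per 1000000 counts) of genes with an adjusted p under 0.05 in any comparison, 1 panel per gene with the vertical axis from 0. Points are single libraries and lines the mean of the 2 libraries of an age; Ccr9 is the panel in which the levels fall with age, and in the others both 3M points lie above both 2W points.

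Many of these genes lie near each other, in runs with at most 5 other genes between one member and the next, and the runs did not all move as blocks. In the gene order of RefSeq (GRCm38.p6), where 61 of the 62 symbols matched, Ccr9, Cxcr6, Xcr1, Ccr1, Ccr1l1, Ccr3 and Ccr2 form part of such a run on chromosome 9, in that order. Ccr9, at one end, had a log2 fold change of -0.50 in 3M against 2W, and Cxcr6, the next member, one of 2.07. The next genes had 1.14 (Xcr1), 1.60 (Ccr1), 1.75 (Ccr3) and 0.82 (Ccr2), of which Xcr1 and Ccr1 passed the adjusted threshold, as Ccr9 and Cxcr6 did. On chromosome 11 the run Ccl2, Ccl7, Ccl11, Ccl12, Ccl8 and Ccl1 had 5 tested genes, all above 0, of which Ccl11 (2.96) and Ccl8 (2.50) passed while Ccl2 (0.33) and Ccl7 (0.43) did not. A second run on that chromosome, Ccl5, Ccl9, Ccl6, Ccl3 and Ccl4, had 3 tested genes, all above 0, of which Ccl5 and Ccl6 passed. On chromosome 5, Cxcl9 (1.30) passed beside Cxcl10 (-0.081) and Cxcl11 (-0.18), and on chromosome 8, Cx3cl1 (1.23) passed between Ccl22 (-0.68) and Ccl17 (0.28).

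The 250 bases before the first listed start of 4 genes are shown, 5′ to 3′ on the strand of the gene, from RefSeq (GRCm38.p6). The choice was limited to genes with such a window, and Ccl11, which passed the adjusted threshold in every fit of 3M against 2W, is not shown. The 4 genes are Ccl8 and Cx3cr1, which also passed in every such fit, and Cxcr6 and Ccr9, near each other on chromosome 9, which moved in opposite directions. They lie at chr11:82114935-82115184, plus strand (Ccl8), chr9:120068297-120068546, minus strand (Cx3cr1), chr9:123806227-123806476, plus strand (Cxcr6) and chr9:123766961-123767210, plus strand (Ccr9). Capitals mark a match to one of 5 motifs searched on both strands, the TATA box TATAAA, the CCAAT box CCAAT, the GAS element TTCNNNGAA, the AP-1 site TGANTCA and the PU.1 core AGGAAGT.
Ccl8: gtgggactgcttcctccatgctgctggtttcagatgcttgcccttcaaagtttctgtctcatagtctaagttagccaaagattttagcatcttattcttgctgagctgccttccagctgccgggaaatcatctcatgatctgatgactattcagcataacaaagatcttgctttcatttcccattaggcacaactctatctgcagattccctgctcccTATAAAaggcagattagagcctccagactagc
Cx3cr1: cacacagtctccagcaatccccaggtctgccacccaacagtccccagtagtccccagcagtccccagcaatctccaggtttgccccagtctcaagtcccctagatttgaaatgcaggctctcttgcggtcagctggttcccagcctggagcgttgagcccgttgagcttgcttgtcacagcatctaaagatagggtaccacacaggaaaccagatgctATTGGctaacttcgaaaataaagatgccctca
Cxcr6: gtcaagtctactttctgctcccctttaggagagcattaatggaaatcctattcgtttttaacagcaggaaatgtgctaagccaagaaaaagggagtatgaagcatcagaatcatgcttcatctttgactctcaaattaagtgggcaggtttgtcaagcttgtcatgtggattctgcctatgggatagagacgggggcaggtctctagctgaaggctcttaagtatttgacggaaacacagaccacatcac
Ccr9: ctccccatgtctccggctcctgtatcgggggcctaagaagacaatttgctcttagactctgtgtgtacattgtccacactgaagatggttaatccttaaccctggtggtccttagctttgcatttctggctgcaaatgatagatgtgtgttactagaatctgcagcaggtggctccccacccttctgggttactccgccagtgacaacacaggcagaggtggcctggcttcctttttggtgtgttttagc

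The Ccl8 window held TATAAA from -32 to -27 relative to the start, and that of Cx3cr1 held CCAAT on the opposite strand, from -32 to -28 and written there as ATTGG; the windows of Cxcr6 and Ccr9 held none of the 5 as spelled. Of the 62 genes, 46 had a window, and 13 of those held TATAAA, beside 13.0% of the windows of 27025 genes. Among the 36 tested genes with a window 10 held it. Of the 13 with a window that passed the adjusted threshold in any comparison, 5 held it (Ackr4, Ccl8, Cx3cl1, Cxcl9 and Xcr1). Those 13 genes held the CCAAT box in 3 cases, the PU.1 core in 2 and the GAS element and the AP-1 site in 0. The CCAAT box was in 13 of 46, beside 34.5% of all windows, the PU.1 core in 7, beside 7.80%, the GAS element in 4, beside 7.18%, and the AP-1 site in 4, beside 6.87%. Median GC content was 48.8% and the median number of CpG 3 in the 46 windows, and 52.0% and 6 over all genes. These matches describe letters in a window, and no binding was measured.

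The ligand and receptor pairs of the thymic cortex split. Ccr9 fell with age, Cxcl12 rose, and their partners Ccl25 and Cxcr4 had values at 3M close to those at 2W. Ccr9 was at 669 and 696 at 2W, 535 and 553 at 6W, then 498 and 469 at 3M CPM. Its libraries did not overlap between any 2 ages, and its log2 fold change was -0.33 ± 0.093 (SE), edgeR adjusted p = 0.145 in 6W against 2W and -0.50 ± 0.094 (SE), edgeR adjusted p = 0.0228 in 3M against 2W. The 3M call was lost in the fit of 4 libraries, with the replicate block, in limma on FPKM and when any 1 of the 2W or 6W libraries was left out, with log2 fold changes between -0.53 and -0.42 over all settings. Ccl25 was at 353 and 286 at 2W, 355 and 360.3 at 6W, then 313 and 314 at 3M CPM. The 3M libraries lay between the 2W libraries, and the log2 fold change in 3M against 2W was -0.028 ± 0.13 (SE) with a 95% interval of -0.33 to 0.27. Cxcl12 was at 129 and 152 at 2W, 178 and 159.6 at 6W, then 260.3 and 213 at 3M CPM. Both 3M libraries were higher than the other 4, with a log2 fold change of 0.75 ± 0.15 (SE), edgeR adjusted p = 0.0254 against 2W and 0.49 ± 0.15 (SE), edgeR adjusted p = 0.263 against 6W. The call against 2W was lost in the fit of 4 libraries, with the replicate block and when any 1 of the 2W or 6W libraries was left out. Cxcr4 was at 334 and 319 at 2W, 371 and 359.9 at 6W, then 299 and 355 at 3M CPM. The 2W values lay within the 3M range, and the log2 fold change in 3M against 2W was 0.00095 ± 0.12 (SE) with a 95% interval of -0.28 to 0.28. Ackr3, the scavenger of Cxcl12, was low, at 1.96 and 2.21 at 2W, 2.33 and 1.72 at 6W, then 2.35 and 2.19 at 3M CPM. Its log2 fold change in 3M against 2W was 0.12 ± 0.32 (SE) with a 95% interval of -0.64 to 0.88. Markers of double positive (DP) thymocytes had a summed level of 13859 to 15627 CPM at 2W, 12646 to 12698 at 6W and 11108 to 11269 at 3M. That sum was made up mostly of Rag1 (9404 to 11178 CPM at 2W, 8087 to 8340 at 6W and 7542 to 7715 at 3M). In 6W against 2W 0 of the 10 markers passed the adjusted threshold and 8 had a log2 fold change below 0, while Cd8b1 (0.39) and Dntt (0.21) were above 0. In 3M against 2W 6 of 10 fell and 0 rose, and their part in the result was not tested. In RNA of whole tissue, fewer cells of a type and less RNA per cell cannot be told apart. Cortical epithelium markers, which could move with Ccl25, were at 1406 to 1448 CPM at 2W, 1457 to 1516 at 6W and 1824 to 1882 at 3M, with 5 of 10 higher and 2 lower (Foxn1 and Dll4) in 3M against 2W.

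The share of its transcripts differed between ages within Cxcl12. The transcript ENSMUST00000112866 held 63.0% and 64.0% of the gene's FPKM at 2W, 70.7% and 74.5% at 6W, then 73.0% and 70.8% at 3M. The transcript ENSMUST00000112871 held 28.5% and 26.7% at 2W, 23.5% and 20.3% at 6W, then 21.4% and 23.2% at 3M. The 2W shares lay outside the range of the other ages in both cases, and no test was run on these estimates, which rest on how reads were divided between overlapping transcripts. In Ccl25 a single transcript, ENSMUST00000024004, held 98.5% to 99.4% of the FPKM. In Ccr9, ENSMUST00000168910 held 80.1% to 86.0%, with no order by age.

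Of the genes that guide thymocytes into the medulla, the scavenger Ackr4 rose by 3M, while the Ccr7 axis was higher at 6W without passing the adjusted threshold. Ackr4, which clears Ccl19, Ccl21 and Ccl25, was at 5.18 and 7.11 at 2W, 11.3 and 10.9 at 6W, then 15.6 and 12.5 at 3M CPM. Every later library was above both 2W libraries, with a log2 fold change of 1.19 ± 0.21 (SE), edgeR adjusted p = 0.0204 in 3M against 2W. This call was lost in the fit of 4 libraries, with the replicate block and without 2W replicate 1 or either 6W library. Ccr7, the receptor of mature thymocytes for Ccl19 and Ccl21, was at 40.3 and 32.2 at 2W, 62.2 and 64.8 at 6W, then 46.9 and 62.4 at 3M CPM. No later library overlapped 2W, and the log2 fold changes were 0.81 ± 0.18 (SE), edgeR adjusted p = 0.0848 at 6W and 0.59 ± 0.18 (SE), edgeR adjusted p = 0.0826 at 3M. Ccl21a was at 92.2 and 50.0 at 2W, 149.7 and 174 at 6W, then 116 and 156 at 3M CPM. The gap between its 2W libraries was wider than that from the higher of them to the lower 3M library, and the log2 fold change was 1.19 ± 0.29 (SE), edgeR adjusted p = 0.108 in 6W against 2W and 0.94 ± 0.29 (SE), edgeR adjusted p = 0.0942 in 3M against 2W. Ccl21b, a near-identical copy whose reads can be exchanged with those of Ccl21a, was at 1.45 and 2.02 at 2W, 3.83 and 2.91 at 6W, then 3.73 and 5.11 at 3M CPM. It passed in 3M against 2W (1.34 ± 0.33 (SE), edgeR adjusted p = 0.0481), a call lost in 4 of 8 other fits and in 5 of 6 with 1 library left out. Ccl19, the other ligand of Ccr7, was at 2.47 and 0.981 at 2W, 3.68 and 3.13 at 6W, then 2.83 and 4.88 at 3M CPM. The log2 fold change in 3M against 2W was 1.17 ± 0.49 (SE), edgeR adjusted p = 0.182. Mature thymocyte markers were at 603 to 618 CPM at 2W, 799.8 to 826 at 6W and 792 to 819 at 3M, of which 2 of 10 (Itgae and Gimap3) rose at 6W and 3 of 10 (Itgae, Gimap3 and Il7r) at 3M against 2W. Medullary epithelium markers were at 156 to 190.2 CPM at 2W, 256 to 262 at 6W and 206 to 302 at 3M, of which edgeR called 0 of 9 tested in 3M against 2W and 3 had an unadjusted p under 0.05; their part in these values was not tested.

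No gene of the Ccr4 axis passed the adjusted threshold, whereas the dendritic cell receptor Xcr1 did in 3M against 2W. Ccr4 was at 50.0 and 57.1 at 2W, 47.6 and 48.0 at 6W, then 47.6 and 51.9 at 3M CPM. All libraries lay within a narrow range, with a log2 fold change in 3M against 2W of -0.11 ± 0.12 (SE) and a 95% interval of -0.39 to 0.17. Its ligand Ccl22, made by dendritic cells and medullary epithelium, was at 70.1 and 61.3 at 2W, 55.2 and 54.6 at 6W, then 30.9 and 50.8 at 3M CPM. Ccl22 was lowest in 3M replicate 1 and its log2 fold change was -0.68 ± 0.23 (SE), edgeR adjusted p = 0.109, so the lower level did not pass after adjustment. Ccl17, the second ligand, was at 0.695 and 0.920 at 2W, 1.26 and 0.927 at 6W, then 0.361 and 1.57 at 3M CPM. The 3M replicates stood on either side of all other libraries, and the log2 fold change in 3M against 2W was 0.28 ± 0.69 (SE), edgeR adjusted p = 0.829. Xcl1, which medullary epithelium and T cells make, was at 0.695 and 0.429 at 2W, 1.02 and 1.32 at 6W, then 0.421 and 0.761 at 3M CPM. It was highest at 6W, where its log2 fold change against 2W was 1.05 ± 0.53 (SE), edgeR adjusted p = 0.33. Xcr1, its receptor on dendritic cells that cross-present antigen, was at 5.56 and 3.37 at 2W, 9.11 and 10.1 at 6W, then 10.5 and 9.27 at 3M CPM. It rose in 3M against 2W (1.14 ± 0.26 (SE), edgeR adjusted p = 0.0401), a call lost in 4 of 8 other fits and whichever of the 6 libraries was left out. Dendritic cell markers were at 142 to 160.4 CPM at 2W, 233 to 241 at 6W and 209.6 to 259.8 at 3M, with 5 of 10 higher and 0 lower in 3M against 2W, and their part was not tested.

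**Figure D3:**
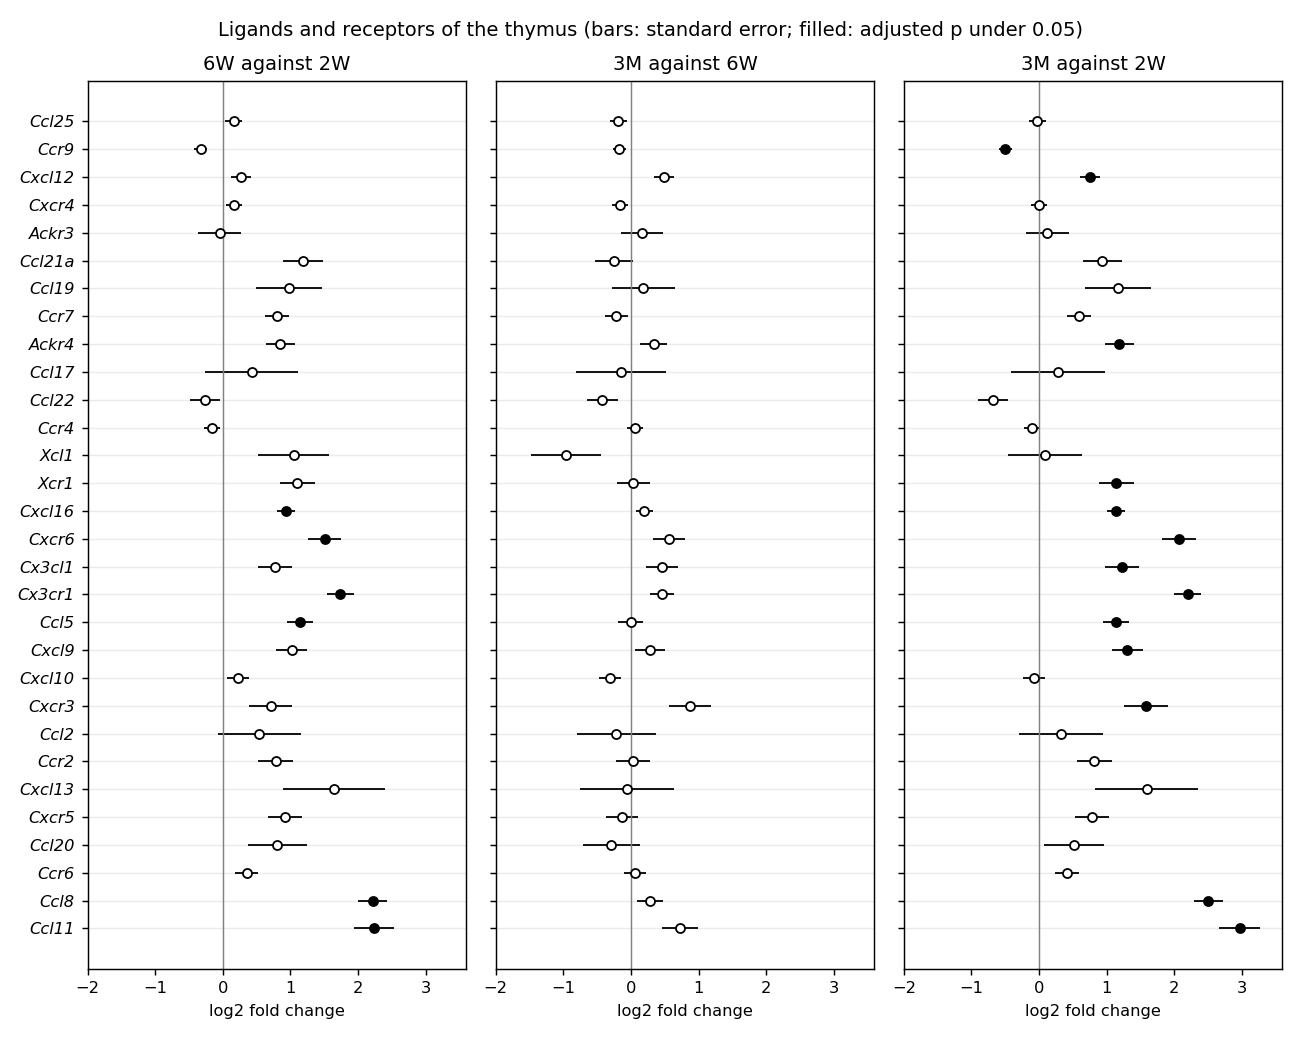
Log2 fold change of ligands and receptors, listed by pair, in the 3 comparisons; bars are standard errors and filled points have an adjusted p under 0.05. In 6W against 2W and 3M against 2W most points lie to the right of 0, and Ccr9, Ccl22 and Ccr4 lie to the left in both, as do Ackr3 in the former and Ccl25 and Cxcl10 in the latter by less than their standard error, while in 3M against 6W no point is filled.

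The 3 largest increases in 3M against 2W were those of Ccl11, Ccl8 and Cx3cr1. Ccl8 was at 1.71 and 2.33 at 2W, 9.64 and 9.18 at 6W, then 11.5 and 11.4 at 3M CPM. Both 2W libraries were below all later ones, and the log2 fold change was 2.22 ± 0.21 (SE), edgeR adjusted p = 0.0231 in 6W against 2W and 2.50 ± 0.21 (SE), edgeR adjusted p = 0.00562 in 3M against 2W. Ccl11 (eotaxin), which attracts eosinophils through Ccr3, was at 1.64 and 3.25 at 2W, 12.6 and 10.6 at 6W, then 19.1 and 19.3 at 3M CPM. Its levels were ordered by age with no overlap, and the log2 fold change was 2.24 ± 0.30 (SE), edgeR adjusted p = 0.0306 at 6W and 2.96 ± 0.30 (SE), edgeR adjusted p = 0.00623 at 3M against 2W. Ccr3 itself was at 0.126 and 0.368 at 2W, 1.60 and 1.68 at 6W, then 0.902 and 0.806 at 3M CPM. It was highest at 6W, with log2 fold changes against 2W of 2.69 ± 0.56 (SE), edgeR adjusted p = 0.0753 at 6W and 1.75 ± 0.58 (SE), edgeR adjusted p = 0.107 at 3M. Cx3cr1 was at 2.02 and 2.15 at 2W, 7.27 and 6.66 at 6W, then 9.98 and 9.18 at 3M CPM. Its levels were also ordered by age with no overlap, and its log2 fold change was 1.74 ± 0.20 (SE), edgeR adjusted p = 0.0231 at 6W and 2.20 ± 0.20 (SE), edgeR adjusted p = 0.00562 at 3M against 2W. Its ligand Cx3cl1 (fractalkine) was at 7.27 and 6.74 at 2W, 11.4 and 12.5 at 6W, then 12.5 and 20.3 at 3M CPM. It rose in 3M against 2W (1.23 ± 0.25 (SE), edgeR adjusted p = 0.0273), where replicate 2 was well above replicate 1, a call lost in 2 of 8 other fits and when any 1 of the 2W or 6W libraries was left out. Ccr1, a receptor of several inflammatory CC ligands, was at 1.14 and 1.16 at 2W, 3.15 and 2.87 at 6W, then 3.97 and 3.05 at 3M CPM. It rose in 3M against 2W (1.60 ± 0.30 (SE), edgeR adjusted p = 0.0232), a call lost in 2 of 8 other fits and in 5 of 6 with 1 library left out. Ccl6 was at 2.91 and 3.00 at 2W, 8.29 and 7.41 at 6W, then 8.48 and 7.88 at 3M CPM. The ranges of 6W and 3M overlapped, and the log2 fold change was 1.47 ± 0.19 (SE), edgeR adjusted p = 0.00989 in 3M against 2W, a call lost when either 2W library was left out. The monocyte receptor Ccr2 was at 6.58 and 9.01 at 2W, 14.6 and 12.3 at 6W, then 16.5 and 11.0 at 3M CPM. Its log2 fold change in 3M against 2W was 0.82 ± 0.26 (SE), edgeR adjusted p = 0.0978. Its ligand Ccl2 stayed at or under 0.794 CPM in every library (0.33 ± 0.62 (SE), edgeR adjusted p = 0.78). The macrophage and monocyte markers were at 508 to 552 CPM at 2W, 984 to 1075 at 6W and 1072 to 1149 at 3M. Of these, 3 of 10 rose at 6W and 8 of 10 at 3M against 2W, 0 fell, and none was at 0 in any library. Adipocyte markers were at 93.0 to 93.9 CPM at 2W, 234 to 242 at 6W and 269.6 to 473 at 3M and those of mast cells, neutrophils and eosinophils at 21.3 to 33.8 CPM at 2W, 62.8 to 70.9 at 6W and 19.2 to 25.1 at 3M. Of the 10 mast cell, neutrophil and eosinophil markers edgeR called 0 in any comparison, with 6 at an unadjusted p under 0.05 in 6W against 2W, and S100a8, a gene of neutrophils, took the largest part of the sum at 2W and 6W (8.83 to 14.1 CPM at 2W, 26.8 to 34.2 at 6W and 2.47 to 8.15 at 3M). The eosinophil genes of that list were low, Epx at 0.368 to 0.632 CPM at 2W, 0.706 to 0.727 at 6W and 0.448 to 0.722 at 3M and Prg2 at 2.57 to 3.22 CPM at 2W, 2.62 to 3.88 at 6W and 2.10 to 3.05 at 3M. The mast cell genes had mean levels at 3M above those at 2W without passing the adjusted threshold, Cpa3 with a log2 fold change of 0.91 ± 0.25 (SE), edgeR adjusted p = 0.0681, Mcpt4 of 3.02 ± 0.82 (SE), edgeR adjusted p = 0.0659, Cma1 of 2.01 ± 0.70 (SE), edgeR adjusted p = 0.12 and Tpsb2 of 1.41 ± 0.82 (SE), edgeR adjusted p = 0.322. The part of these cells and of adipocytes in the chemokine values was not tested.

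Among the ligands and receptors of effector and innate-like lymphocytes, Cxcr6, Cxcl16, Ccl5, Cxcr3 and Cxcl9 passed the adjusted threshold in 3M against 2W. Cxcr6, a receptor of natural killer T cells and other resident lymphocytes, was at 2.66 and 3.07 at 2W, 8.09 and 8.21 at 6W, then 14.4 and 9.72 at 3M CPM. It rose in both comparisons with 2W, by 1.51 ± 0.25 (SE), edgeR adjusted p = 0.0443 at 6W and 2.07 ± 0.25 (SE), edgeR adjusted p = 0.00792 at 3M on the log2 scale, and 3M replicate 1 was the highest library. The 3M call was lost without 2W replicate 1. Cxcl16, its ligand, was at 18.8 and 16.5 at 2W, 34.3 and 33.4 at 6W, then 35.8 and 41.6 at 3M CPM. It rose by 0.94 ± 0.13 (SE), edgeR adjusted p = 0.0351 at 6W and 1.13 ± 0.13 (SE), edgeR adjusted p = 0.00768 at 3M on the same scale, and the 3M call was lost without 2W replicate 2. Ccl5, a ligand that effector lymphocytes release, was at 5.63 and 4.72 at 2W, 10.1 and 12.6 at 6W, then 11.5 and 11.2 at 3M CPM. It was nearly equal at 6W and 3M, with a log2 fold change of 1.13 ± 0.19 (SE), edgeR adjusted p = 0.018 in 3M against 2W, a call lost when either 2W library was left out. Cxcr3, the receptor of type 1 effector cells, was at 1.20 and 1.72 at 2W, 2.04 and 2.74 at 6W, then 4.45 and 4.30 at 3M CPM. The log2 fold change was 1.58 ± 0.32 (SE), edgeR adjusted p = 0.0284 in 3M against 2W, and the call was lost whichever of the 6 libraries was left out. Of its ligands, which interferon induces, Cxcl9 was at 4.87 and 3.49 at 2W, 7.71 and 9.27 at 6W, then 10.9 and 9.72 at 3M CPM. It rose in 3M against 2W (1.30 ± 0.23 (SE), edgeR adjusted p = 0.0196), a call lost when any 1 of the 2W or 6W libraries was left out. Cxcl10 was at 17.8 and 14.3 at 2W, 19.2 and 18.3 at 6W, then 14.0 and 16.3 at 3M CPM, and its log2 fold change in 3M against 2W was -0.081 ± 0.16 (SE) with a 95% interval of -0.47 to 0.31. The third ligand, Cxcl11, stayed between 1.61 and 2.29 CPM. Natural killer and innate lymphocyte markers were at 72.0 to 76.8 CPM at 2W, 87.8 to 92.6 at 6W and 117 to 122 at 3M, with 2 of 9 tested higher in 3M against 2W, Klrb1c (2.93 ± 0.34 (SE), edgeR adjusted p = 0.00722) and Nkg7 (1.21 ± 0.17 (SE), edgeR adjusted p = 0.0117). All 9 had a log2 fold change above 0 in that comparison and 7 an unadjusted p under 0.05. Among the 7 was Klre1, at 0 in every 2W and 6W library and at 0.541 and 0.985 CPM at 3M. It passed the filter on low counts through 3M alone, which fixed its direction. The sum was made up mostly of Gzma (51.8 to 57.2 CPM at 2W, 53.4 to 57.8 at 6W and 69.0 to 80.3 at 3M), with edgeR adjusted p = 0.0702 in 3M against 2W. The defining gene Ncr1, which was not tested, was at or under 0.552 CPM in all libraries. The part of these cells was not tested.

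The B cell pair and the Ccr6 pair did not pass the adjusted threshold. Cxcr5, the receptor of B cells in follicles, was at 3.16 and 2.39 at 2W, 5.62 and 4.90 at 6W, then 4.69 and 4.88 at 3M CPM. Every later library was above 2W, with log2 fold changes of 0.92 ± 0.25 (SE), edgeR adjusted p = 0.129 at 6W and 0.79 ± 0.25 (SE), edgeR adjusted p = 0.0972 at 3M. Cxcl13, its ligand, was at 0.948 and 0.797 at 2W, 3.25 and 2.25 at 6W, then 4.51 and 0.851 at 3M CPM. In it 3M replicate 1 was the highest library and 3M replicate 2 lay within the 2W range, with a log2 fold change of 1.59 ± 0.76 (SE), edgeR adjusted p = 0.236. B cell and plasma cell markers were at 366 to 459 CPM at 2W, 592 to 673 at 6W and 683 to 733 at 3M, a sum made up mostly of Ighm (310.5 to 392 CPM at 2W, 514 to 569 at 6W and 609 to 642 at 3M). Of the 10, 1 rose in 3M against 2W, and in 3M against 6W 0 passed, 2 had an unadjusted p under 0.05 and 7 had a log2 fold change below 0. Their part was not tested. Ccl20 was at 0.822 and 1.72 at 2W, 1.94 and 2.52 at 6W, then 1.62 and 2.02 at 3M CPM, with a log2 fold change of 0.52 ± 0.44 (SE), edgeR adjusted p = 0.502 in 3M against 2W. Its receptor Ccr6 was at 7.65 and 7.17 at 2W, 10.3 and 8.65 at 6W, then 9.98 and 9.76 at 3M CPM. Every later library was above 2W, and the log2 fold change was 0.41 ± 0.17 (SE), edgeR adjusted p = 0.18. Between 52.9% and 76.9% of the Ccr6 count was on an assembled transcript, and its direction turned without that transcript. The Duffy scavenger Ackr1 stayed between 0.307 and 1.07 CPM.

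A further 11 tested genes (Ccl7, Ccl9, Ccl12, Ccl27a, Ccr3, Ccr8, Ccr10, Cxcl1, Cxcl11, Cxcl14 and Cxcr2) passed no adjusted threshold, with log2 fold changes in 3M against 2W from -0.72 (Ccl27a) to 1.75 (Ccr3). Untested for low counts were 15 genes, with 0 to 14 estimated counts per library. They were the ligands Ccl1, Ccl3, Ccl4, Ccl26, Ccl27, Ccl27b, Ccl28, Cxcl2, Cxcl3, Cxcl5, Cxcl15 and Cxcl17, the receptors Ccr1l1 and Cxcr1 and the scavenger Ackr2. Ccl3 and Ccl4, ligands made by activated macrophages and lymphocytes, had at most 5 and 10 counts, the highest in 3M libraries. The neutrophil ligands Cxcl2, Cxcl3 and Cxcl5 had at most 12, 7 and 6 counts and the receptor Cxcr1 at most 2. Cxcr2, the main receptor of these ligands in mice, passed the filter on low counts, at 0.506 and 0.307 at 2W, 1.11 and 0.971 at 6W, then 0.662 and 0.224 at 3M CPM. Ccl26 and Ccl27b had 0 counts in all 6 libraries, so for each library a level of up to 3 counts, which a count of 0 allows by counting error alone, was not detectable. A gene could pass the filter on low counts through a single age, so the 47 tested genes do not stand for the 62.

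**Figure D4:**
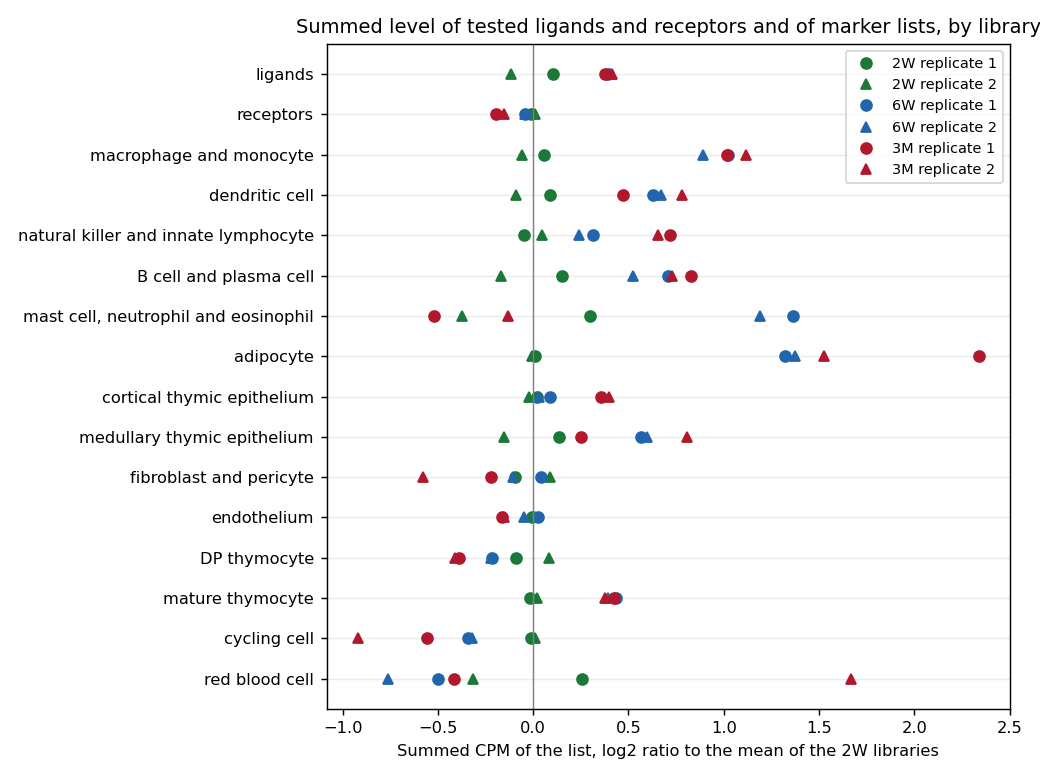
Summed CPM of the tested ligands, of the tested receptors and of 14 marker lists, as the log2 ratio to the mean of the 2W libraries, with 1 point per library. Ligands lie right of 0 at 6W and 3M and receptors at or left of 0; the macrophage, dendritic cell and adipocyte lists lie to the right at both later ages, the DP thymocyte and cycling cell lists to the left.

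Summed over all tested ligands, the level was 625 to 728 CPM at 2W, 888 to 897 at 6W and 878 to 903 at 3M, so the later ages lay above 2W. Over the tested receptors with the atypical ones it was 1141 to 1156 CPM at 2W, 1113 to 1115 at 6W and 1004 to 1032 at 3M, lower at each later age. Ccr9 and Cxcr4 make up most of the receptor sum and Ccl25, Ccl21a and Cxcl12 most of the ligand sum, so these sums follow the abundant genes, while the medians above weigh each gene alike. Cycling cell markers were at 4409 to 4471 CPM at 2W, 3502 to 3557 at 6W and 2344 to 3022 at 3M. Endothelial markers were at 250.2 to 253 CPM at 2W, 243 to 256 at 6W and 225 to 226 at 3M, a sum made up mostly of Pecam1 (178 to 179.8 CPM at 2W, 169 to 177 at 6W and 136 to 147 at 3M). Of the 10 endothelial markers, 1 (Plvap) rose in 3M against 2W and 0 fell, 6 had a log2 fold change above 0 and the median was 0.40. Fibroblast and pericyte markers were at 564 to 640.4 CPM at 2W, 559.7 to 619 at 6W and 403 to 517 at 3M, a sum that includes Col3a1 and Col1a1, which fell in 3M against 2W. Of these 10 markers, 3 rose in the same comparison, Dcn (1.44 ± 0.24 (SE), edgeR adjusted p = 0.0178), Pdgfra (1.38 ± 0.21 (SE), edgeR adjusted p = 0.0131) and Dpt (1.02 ± 0.24 (SE), edgeR adjusted p = 0.0419), and the median log2 fold change was 0.35. The part of these cells in the higher levels of Cxcl12 and Ccl11 was not tested.

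Genes downstream of the receptors and attractants of other families had a median change near 0, with a few members that rose. Of 66 such genes (G protein subunits, arrestins, regulators of G protein signalling, kinases, and attractants of other families), 63 were tested, with a median log2 fold change of 0.059 in 6W against 2W and 0.028 in 3M against 2W. At an adjusted p under 0.05, 3 rose in 6W against 2W and 7 in 3M against 2W, 0 fell in either, and edgeR called 0 of 63 in 3M against 6W, where 6 had an unadjusted p under 0.05. The 7 of 63 stand beside 7.91% of all genes higher in 3M against 2W and the 3 of 63 beside 1.47% in 6W against 2W, so no result about the list is read from them. Cmklr1, the receptor of the attractant chemerin on macrophages and dendritic cells, was at 4.68 and 3.92 at 2W, 11.4 and 12.7 at 6W, then 13.3 and 15.6 at 3M CPM. Every later library was above 2W, with log2 fold changes of 1.48 ± 0.19 (SE), edgeR adjusted p = 0.0274 at 6W and 1.75 ± 0.19 (SE), edgeR adjusted p = 0.00675 at 3M. Rarres2, which encodes chemerin, rose in 3M against 2W (1.49 ± 0.36 (SE), edgeR adjusted p = 0.048). C3ar1, the receptor of complement C3a, rose at 6W (1.61 ± 0.23 (SE), edgeR adjusted p = 0.0359) and 3M (1.75 ± 0.23 (SE), edgeR adjusted p = 0.0102), as did the kinase Lyn (0.84 ± 0.11 (SE), edgeR adjusted p = 0.0324, and 0.93 ± 0.11 (SE), edgeR adjusted p = 0.00846). The regulator Rgs1 (1.11 ± 0.20 (SE), edgeR adjusted p = 0.0204) and Cd74 (0.88 ± 0.21 (SE), edgeR adjusted p = 0.0452), a receptor of the cytokine Mif and the invariant chain of MHC class II, rose in 3M against 2W. In 3M against 2W, 8 of 10 adipocyte markers, 8 of 10 macrophage and monocyte markers, 5 of 10 dendritic cell markers and 1 of 10 B cell and plasma cell markers were also higher, and their part in these values was not tested.

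Of the circRNAs in the deposited table, 3 were assigned to a chemokine or receptor gene, and all 3 to Ccl25. Their back-splice junction counts were 0 to 3 per library, and in sum over the 3 they were 0 and 1 at 2W, 4 and 5 at 6W and 2 and 0 at 3M. Libraries held 10663 to 21914 junction counts in all, so no difference between ages was detectable at this depth.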

How the data were processed

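RNA of the thymus at 3 ages (2 libraries each) was depleted of ribosomal RNA, sequenced with strand kept and quantified by the authors. The deposited mRNA table holds estimated counts and FPKM for each transcript, and the deposited circRNA table counts of back-splice junctions, both made by the authors. The submitters' processing notes name Bowtie 0.12.2 and the build mm8, without saying for which files, and the program behind the mRNA tables is not given in the sources used here. Columns of other samples numbered 0. The lncRNA and miRNA tables were not used here.

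Transcripts were summed by symbol, with symbols that differ only in case joined (665 genes, 0 of them chemokines or receptors), and rounded. The 372 transcripts with no symbol, 0.699% to 1.20% of counts, were left out. All 6 libraries entered 1 fit in edgeR 4.0.16 (R 4.3.3; TMM, filterByExpr by age, glmQLFit and glmQLFTest, prior count 0.125), with age as the only term and Benjamini-Hochberg adjustment over the 14805 genes tested. An adjusted p here is from this fit, SE is the absolute log2 fold change divided by the square root of its F, 95% intervals use the t distribution with the fit's degrees of freedom, and CPM are counts per 1000000 after TMM. With 2 libraries an age, an exact permutation test could not go below p = 0.333. On simulated counts for 6W against 2W, 200 genes were changed 4-fold. The filter on low counts left 14551 genes, and the fit recovered 74.9% of the changed genes among them, with 9 false calls. Smaller changes were not simulated. DESeq2 1.42.0, limma 3.58.1 on log2(FPKM + 0.1), total-count scaling, no filter, the 4 libraries compared, a replicate block, exact symbols, annotated transcripts only and each library left out in turn were the alternatives. Sums and figures were made with pandas 2.3.3, numpy 2.4.6 and matplotlib 3.10.9 under Python 3.11.15.

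Genes named with values were fixed pairs of thymic ligands and receptors, every member with an adjusted p under 0.05, up to 2 members per direction and comparison with the smallest p past the study's threshold, and signalling genes with an adjusted p under 0.05. Results for some genes these rules take in, and for the marker list that holds Pth, are not reported here. Ccr3, Cxcl11, Pth and other genes outside this rule were named after their values were seen. The members, the marker lists and the rule were chosen with earlier results of these data known. Copies such as Ccl21a, Ccl21b and Ccl27a share sequence, so their counts are uncertain. The detection limit given for genes without counts covers counting error only. Intervals of log2 fold changes use the SE of the fit, which also takes in the spread between libraries of an age.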

Additional observations from a re-analysis of the deposited data

How the results depend on the processing

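At an adjusted p under 0.05, the 8 genes called in 6W against 2W became 15 with DESeq2 (885 of all 14805 genes), 5 with exact symbols (124 of 15199) and 0 with annotated transcripts only (4 of 14174), beside 257 of 14805 in the reported fit, and 0 to 10 when 1 library was left out; the 17 called in 3M against 2W became 9 with only the 4 libraries of those ages and 4 to 17 when 1 library was left out. At the study's threshold, the 1 gene of 3M against 6W became 0 with DESeq2, with the 4 libraries and with annotated transcripts only, and 0 to 2 when 1 library was left out. Fits with fewer libraries or fewer transcripts test on less data; otherwise the cause was not tested. Replicate numbers are shared across ages, but same-numbered libraries deviated together in 1 of 3 pairs of ages (correlations of 0.35 for 6W and 3M, -0.058 for 2W and 6W and -0.18 for 2W and 3M), so the numbers were not taken to pair the samples. With the replicate block the calls were 0 in 6W against 2W and 9 in 3M against 2W at an adjusted p under 0.05, and 0 at the study's threshold in 3M against 6W. Log2 fold changes turned sign for Ccr6 with annotated transcripts only (-0.42 in 6W against 2W and -0.42 in 3M against 2W). With 1 library left out at a time, the values on both sides of 0 ranged in 3M against 6W from -1.63 to 0.53 for Ccl17, -0.32 to 0.53 for Ccl19, -0.28 to 0.25 for Ccr2, -0.060 to 0.13 for Ccr4 and -1.67 to 0.66 for Cxcl13. In 3M against 2W they ranged from -1.18 to 0.97 for Ccl17, -0.17 to 0.13 for Ccl25, -0.23 to 0.084 for Cxcl10, -0.0093 to 2.33 for Cxcl13 and -0.16 to 0.15 for Cxcr4. The library that turned the sign was a 3M one, or 2W replicate 1 for Ccl25 and Cxcl10. None of these had passed the adjusted threshold. Of the values of single genes under these alternatives, 1348 kept their direction and side of the threshold, 123 lost and 23 gained a call, and 12 turned.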
